A study of Homo sapiens with 2 samples.

Results

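The genes described here encode the enzymes that build cholesterol and fatty acids from acetyl-CoA, together with the proteins of the sterol regulatory element-binding protein (SREBP) system that set their transcription. They were chosen by name, as a list of 32 genes, and 29 of them could be read on the arrays, out of 19775 named genes in all. Expression was measured in H2228 cells, a human line of lung adenocarcinoma with variant 3 of the EML4-ALK fusion. RNA came from cells given interleukin 4 (IL4), at 100 ng/mL for 30 min according to the series description, and from untreated cells, on 1 Affymetrix U133 Plus 2.0 array per condition. The sample labels also describe transfection with EML4-ALK plasmids, siRNAs or negative controls, and whether these cells had been transfected is not stated elsewhere. With 1 array per condition there was no replicate and no test, so every difference below is a difference between those 2 arrays.

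Cholesterol is made from acetyl-CoA through mevalonate, isoprenoid units, squalene and a series of sterol intermediates. Fatty acids are made from the same precursor by carboxylation, chain assembly, elongation and desaturation. When sterols in the endoplasmic reticulum are low, SCAP escorts SREBP proteins to the Golgi, where they are cut and released as transcription factors for most of these enzymes. When sterols are high, INSIG proteins hold SCAP back, and INSIG1 is itself a target of SREBPs. IL4 signals through JAK kinases and STAT6.

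Values are log2 expression values of probe sets, the groups of short probes that together read a transcript, as deposited. A gene was represented by its brightest probe set over both arrays, and the difference was the IL4 value minus the untreated value. The level used to count genes in either direction was 1.5-fold, a log2 difference of 0.58. Values were compared within a gene only, because probe sets differ in brightness. All 29 genes lay above the median level of all probe sets, 5.03, with means from 5.91 to 11.03. FDFT1, CYP51A1 and FADS1 were not analysed here. The 2 probe sets of CYP51A1 and the 3 of FADS1 were annotated to a second gene as well.

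Of the 29 genes, INSIG1 and HMGCS1 passed 1.5-fold upwards with IL4 and ELOVL6 passed it downwards. Over all genes, 3.21% were at least 1.5-fold higher and 4.39% at least 1.5-fold lower. Other genes of similar level, those whose mean lay within 0.5 on the log2 scale of at least 1 of the 29, numbered 11254, and 4.7% of them were higher and 6.42% lower. The counts of 2 and 1 of 29 (6.90% and 3.45%) were thus near these background shares. The median log2 difference of the 29 genes was 0.058, against 0 over all genes and -0.036 over other genes of similar level. The median of the 29 was 0.12 after a loess correction of the difference on level, against -0.014 over all genes after the same correction.

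**Figure D1:**
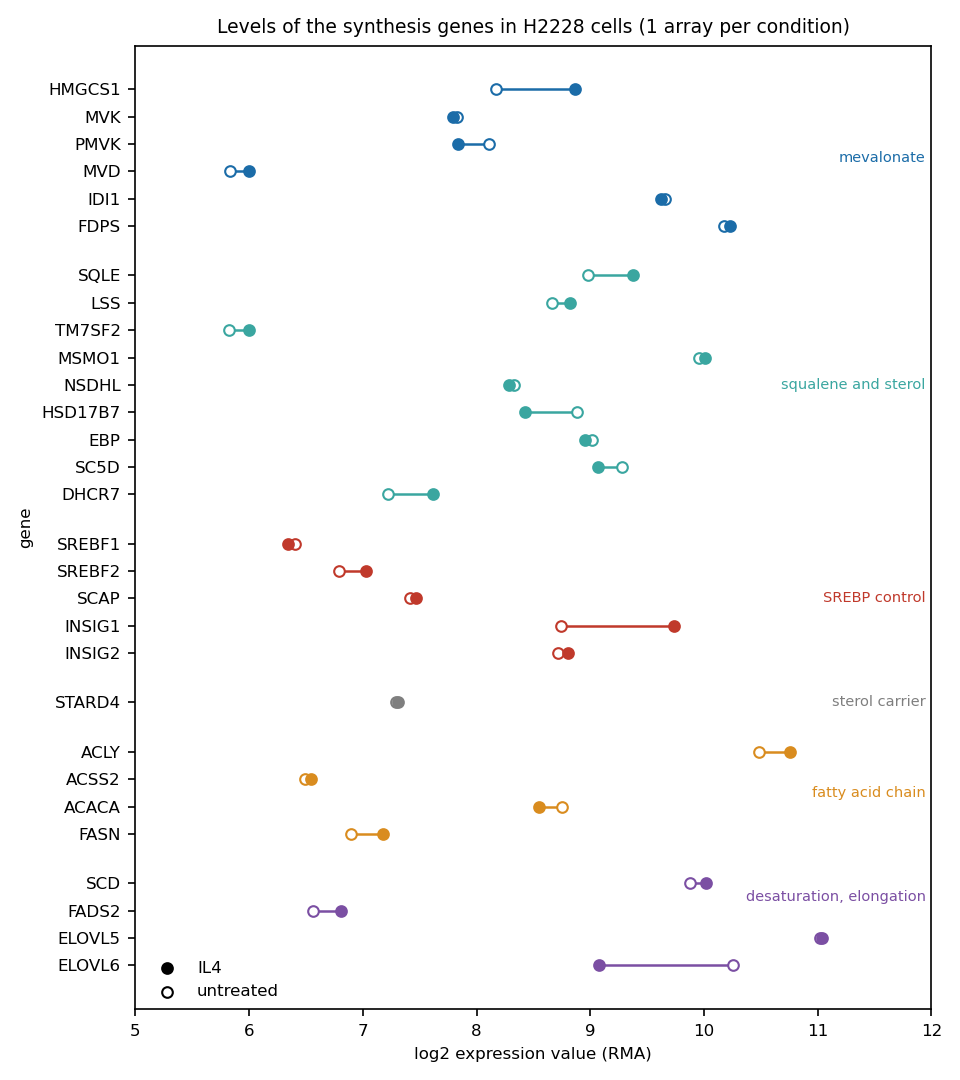
Log2 expression values (x axis) of the 29 measured genes (y axis), grouped and coloured by role, with IL4 (filled circles) and in untreated H2228 cells (open circles), 1 array each. Values are to be compared within a gene only; INSIG1 and HMGCS1 lie to the right with IL4, ELOVL6 lies to the left, and the circles of most other genes are close together.

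ELOVL6, the elongase that extends palmitate to stearate, had the largest difference of the group. Its log2 value was 9.08 with IL4 and 10.26 in untreated cells, which is 2.26-fold lower with IL4. The ELOVL6 transcript was read by 3 probe sets. The others gave 7.28 with IL4 and 8.41 in untreated cells, and 3.13 with IL4 and 4.29 in untreated cells, the last pair below the median level. The log2 differences of the 3 were -1.18, -1.13 and -1.16 and so differed from each other by little. Among 1312 other genes of similar level, 4 had a lower difference than ELOVL6, and it ranked 86th from the lowest among all genes. ELOVL6 lies at chr4:110045846-110199202 in GRCh38.p14.

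INSIG1, the sterol-sensing protein that retains SCAP in the endoplasmic reticulum, had the largest positive difference of the group. Its log2 value was 9.74 with IL4 and 8.74 in untreated cells, 1.99-fold higher. Its further probe sets read 8.91 with IL4 and 7.82 in untreated cells, and 7.43 with IL4 and 6.48 in untreated cells. All 3 probe sets thus gave about the same log2 difference, at 0.99, 1.09 and 0.95. The difference of INSIG1 exceeded that of 1578 of 1614 other genes of similar level, and it ranked 221st from the highest among all genes. INSIG1 lies at chr7:155297878-155310235.

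HMGCS1, the cytosolic HMG-CoA synthase that makes the substrate of the rate-limiting step of cholesterol synthesis, was 1.62-fold higher. Its log2 value was 8.86 with IL4 and 8.17 in untreated cells, a difference of 0.69. A second probe set read 6.60 with IL4 and 6.09 in untreated cells, a difference of 0.51, which points the same way but is below 1.5-fold. HMGCS1 exceeded 1938 of 2037 other genes of similar level and lies at chr5:43287470-43313412.

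The sequences before an annotated start of these 3 genes and of SREBF2, the only 1 of the 27 genes searched with a match to the sterol element, are shown because SREBPs act at such promoters together with the CCAAT-binding factor NF-Y. Each is the 200 bases that end just before an annotated start in RefSeq, GRCh38.p14, written in the direction of the gene. Capitals mark matches, on either strand, to TCACNCCAC, the core of the sterol regulatory element, to CCAAT and to the E-box CACGTG. HMGCS1 has 2 annotated starts, of which the one farther upstream is shown. The annotated start of ELOVL6 lies inside the gene span given above, so its stretch is within the gene, and sequence before the outer end of ELOVL6 was not searched. ELOVL6 is from chr4:110198616-110198815 (minus strand), INSIG1 from chr7:155297678-155297877 (plus strand), HMGCS1 from chr5:43313413-43313612 (minus strand) and SREBF2 from chr22:41832905-41833104 (plus strand).
ELOVL6: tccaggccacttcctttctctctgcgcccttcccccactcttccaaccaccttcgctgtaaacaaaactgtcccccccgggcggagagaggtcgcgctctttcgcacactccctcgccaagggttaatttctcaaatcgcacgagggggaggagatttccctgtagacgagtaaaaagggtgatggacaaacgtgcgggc
INSIG1: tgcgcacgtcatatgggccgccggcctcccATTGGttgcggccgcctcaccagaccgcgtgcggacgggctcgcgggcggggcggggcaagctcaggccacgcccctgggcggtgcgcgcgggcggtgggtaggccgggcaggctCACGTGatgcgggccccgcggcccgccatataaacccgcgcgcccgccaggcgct
HMGCS1: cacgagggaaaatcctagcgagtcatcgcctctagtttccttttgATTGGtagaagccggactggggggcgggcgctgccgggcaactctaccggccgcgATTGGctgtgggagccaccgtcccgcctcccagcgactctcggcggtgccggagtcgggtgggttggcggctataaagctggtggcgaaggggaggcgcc
SREBF2: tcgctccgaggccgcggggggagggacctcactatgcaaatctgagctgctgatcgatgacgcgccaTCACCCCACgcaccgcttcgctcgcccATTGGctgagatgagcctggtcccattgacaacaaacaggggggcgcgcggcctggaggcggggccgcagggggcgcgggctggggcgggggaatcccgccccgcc

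Positions are those of the first base of a match relative to the start. INSIG1 had a CCAAT match at -170 and an E-box at -55. HMGCS1 had CCAAT matches at -155 and -100, and SREBF2 had the sterol element core at -133 and a CCAAT match at -106. All of these CCAAT matches were on the reverse strand and read ATTGG in the letters above. The ELOVL6 window, which unlike the other windows printed lies within its gene, held none of the 3 motifs. Starts searched for SCAP, ACLY, ACACA, IDI1 and MVK, among others, also lie inside the gene span, and the counts that follow include them. Promoters were given for 27 of the 29 genes, 38 in all, some of which overlap because a gene has several starts. SQLE and FASN had no entry. In the 250 bases before the start, 25 of the 38 promoters (65.8%) held CCAAT, against 32.01% of 35116 annotated promoters. The E-box was in 5 of 38 (13.2%), against 6.34%, and the sterol element core in 1 of 38 (2.63%), against 0.883%. These are matches of letters and not measured binding, and the motifs did not share bases in the stretches printed.

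The early, mevalonate part of the pathway had 6 measured genes and a median log2 difference of 0.011, which was -0.036 among the 5 above the 75th percentile of level. HMGCS1 was the 1 gene past 1.5-fold. The next enzymes in line hardly differed or went either way. Mevalonate kinase, MVK, read 7.80 with IL4 and 7.83 in untreated cells, a difference of -0.036. Phosphomevalonate kinase, PMVK, read 7.84 with IL4 and 8.11 in untreated cells, a difference of -0.27 on its single probe set. The decarboxylase MVD read 6.0 with IL4 and 5.83 in untreated cells. Isopentenyl diphosphate isomerase, IDI1, read 9.62 with IL4 and 9.66 in untreated cells, and farnesyl diphosphate synthase, FDPS, read 10.23 with IL4 and 10.17 in untreated cells. None of the 5 enzymes after HMGCS1 passed 1.5-fold, and their differences had either sign.

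The squalene and sterol steps had 9 measured genes of 11, a median of 0.052 and no gene past 1.5-fold. SQLE, squalene monooxygenase, a second control point of the pathway, read 9.37 with IL4 and 8.98 in untreated cells, 1.31-fold higher. Its 3 further probe sets had log2 differences from 0.32 to 0.36, so all 4 pointed up by similar amounts. DHCR7, which makes cholesterol from 7-dehydrocholesterol, read 7.62 with IL4 and 7.22 in untreated cells, 1.32-fold higher, and its second probe set differed by 0.27. HSD17B7, a 3-ketosteroid reductase of the same route, went the other way, at 8.43 with IL4 and 8.88 in untreated cells, 1.37-fold lower. HSD17B7 was read by a single probe set of a design that can bind similar transcripts, and a near-identical pseudogene exists, so its value is uncertain.

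Lanosterol synthase, LSS, differed by 0.15 and the sterol reductase TM7SF2 by 0.18. The methyl sterol monooxygenase MSMO1 differed by 0.052. SC5D, the desaturase before DHCR7, read 9.07 with IL4 and 9.28 in untreated cells, a difference of -0.21. NSDHL and EBP, a dehydrogenase and an isomerase of the sterol ring, had differences of -0.044 and -0.060. The further probe sets of both read slightly above 0, from 0.028 to 0.17, so neither has a settled direction. Along the 15 measured enzymes from HMGCS1 to DHCR7, 8 (53.3%) lay above 0 and 7 below, against 45.5% of all genes above 0.

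The SREBP control genes had a median of 0.086 and INSIG1 as the 1 gene past 1.5-fold. INSIG2, the relative of INSIG1 that also binds SCAP, read 8.80 with IL4 and 8.72 in untreated cells, a difference of 0.086. The INSIG genes thus differed in size, by 0.99 and 0.086, a contrast between single arrays that was not tested. SREBF2, which encodes the SREBP that acts mainly on sterol genes, read 7.03 with IL4 and 6.79 in untreated cells, a difference of 0.24, with 0.077 and 0.28 on its further probe sets. SREBF1, which encodes the forms that act on fatty acid genes, read 6.34 with IL4 and 6.41 in untreated cells, and differed by -0.066, with -0.27 on its second probe set. SCAP read 7.47 with IL4 and 7.41 in untreated cells, a difference of 0.058. None of SREBF1, SREBF2 and SCAP passed 1.5-fold, and mRNA does not show whether SREBP proteins were cut. STARD4, a carrier of sterols between membranes, read 7.31 with IL4 and 7.29 in untreated cells.

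The genes that supply and assemble the fatty acid chain had a median of 0.16 and none past 1.5-fold. ACLY, which releases cytosolic acetyl-CoA from citrate, read 10.76 with IL4 and 10.48 in untreated cells, 1.21-fold higher, and its further probe sets gave 0.37 and 0.48, more than its brightest. FASN, the fatty acid synthase, read 7.18 with IL4 and 6.89 in untreated cells, 1.22-fold higher, with 0.085 on a second, dimmer probe set. ACSS2, which makes acetyl-CoA from acetate, differed by 0.047. ACACA, the acetyl-CoA carboxylase that commits carbon to fatty acids, read 8.55 with IL4 and 8.76 in untreated cells, a difference of -0.20. A second ACACA probe set differed by 0.057, so its direction depends on the probe set.

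Among the desaturases and elongases, ELOVL6 was the 1 gene of 4 measured past 1.5-fold, and the median was 0.078. SCD, which desaturates stearate and palmitate and so acts beside ELOVL6, read 10.02 with IL4 and 9.88 in untreated cells, a difference of 0.14, and its further probe sets ranged from 0.092 to 0.41. FADS2, the first desaturase of polyunsaturated fatty acids, read 6.81 with IL4 and 6.56 in untreated cells, a difference of 0.25. ELOVL5, an elongase of polyunsaturated fatty acids, read 11.04 with IL4 and 11.03 in untreated cells. The 9 enzymes of fatty acid synthesis, of which 8 were measured, had differences from -1.18 for ELOVL6 to 0.29 for FASN. Of the 8, 6 (75%) lay above 0, against 45.5% of all genes, a share that rests on few genes.

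Smaller differences were counted at 1.2-fold. At that level 6 genes were higher (INSIG1, HMGCS1, DHCR7, SQLE, FASN and ACLY), 3 were lower (ELOVL6, HSD17B7 and PMVK), and 20 differed by less. The higher genes made 20.7% of the 29, against 13.7% of all genes and 14.7% of genes of similar level. The lower genes made 10.3%, against 17.6% of all genes and 22.5% of genes of similar level. These shares rest on 6 and 3 genes and on single arrays, and their gap to genes of similar level was not tested. Of the 29 genes, 19 had a positive difference (65.5%) and 10 a negative one. Above 0 lay 45.5% of all genes and 43.8% of other genes of similar level, and the gap was not tested. Ranked against the other genes within 0.5 of its own level, 23 of the 29 genes lay above the middle of those genes, and the median rank was at percentile 68.7. The 23 include MVK, IDI1, NSDHL and EBP, whose own differences were negative, because the median of the genes near their level was negative too. INSIG1 and HMGCS1 lay above percentile 90 and ELOVL6 below percentile 10.

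Probe sets of a gene offer a check within the same arrays. The 29 genes had 65 probe sets, and 19 genes had more than 1. Of 28 further probe sets at or above the median level, 19 had the sign of the brightest one. In 14 of the 19 genes all probe sets had the same sign, among them INSIG1, HMGCS1, ELOVL6, SQLE, DHCR7, ACLY, FASN and SCD. The exceptions were MVK, NSDHL, EBP, ACACA and ELOVL5, whose brightest probe sets differed by -0.20 to 0.013. The share of all genes with such agreement in sign was not computed, so these counts have no background to be read against. Across 6056 genes read by a second probe set at or above the median level, the gap between the log2 differences of the brightest and the second had a standard deviation of 0.25. This measures disagreement within these arrays and not variation between cultures. The differences of INSIG1, HMGCS1 and ELOVL6, at 0.69 to 1.18 in size, were larger than that figure. Those of SQLE, DHCR7, HSD17B7, FASN, ACLY and PMVK, at 0.27 to 0.45, were larger by less, and FASN had 0.085 on its second probe set. All these genes passed 1.2-fold. Of all genes, 13.7% were at least 1.2-fold higher and 17.6% lower, against 20.7% and 10.3% of the 29. Among other genes of similar level the shares were 14.7% and 22.5%. A difference above 0.25 was thus common, and passing it does not by itself set a gene apart.

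The lipid pathways next to these genes were read from 7 lists with 105 genes, of which 96 were measured. Past 1.5-fold, 2 of the 96 were higher and 2 lower, and the median was 0. That is 2.08% in each direction, below the 3.21% higher and 4.39% lower over all genes. The genes named next are thus no more than the background share would give. NPC1, which exports cholesterol from lysosomes, read 9.23 with IL4 and 8.54 in untreated cells, 1.62-fold higher, and its 3 dimmer probe sets differed by 0.27 to 0.58. ELOVL7, an elongase of long-chain fatty acids, read 8.14 with IL4 and 7.23 in untreated cells, 1.87-fold higher on a single probe set. ELOVL6 and ELOVL7 thus had differences of opposite sign, -1.18 and 0.91.

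MYLIP, a ubiquitin ligase that degrades lipoprotein receptors, read 6.97 with IL4 and 8.75 in untreated cells, 3.43-fold lower. Its 5 further probe sets ranged from -1.61 to -0.065, so the size rests on which is used. GPAM, the acyltransferase that starts glycerolipid synthesis, read 6.11 with IL4 and 6.86 in untreated cells, 1.68-fold lower, with -0.48 on a second probe set.

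By list, sterol uptake, efflux and storage had NPC1 higher and MYLIP lower among 16 measured genes, with a median of -0.053. Other elongation and desaturation had ELOVL7 higher among 11, with a median of 0. Acyl-CoA and glycerolipid synthesis had GPAM lower among 15, with a median of 0.060. No gene passed 1.5-fold among 14 genes of isoprenoid branches (median -0.013), 13 of SREBP processing and turnover (-0.035), 12 of acetyl-CoA and NADPH supply (0.030) or 15 of fatty acid oxidation (-0.049). These medians are close to 0, and all but that of acyl-CoA and glycerolipid synthesis changed sign or left 0 under at least 1 other way of processing.

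**Figure D2:**
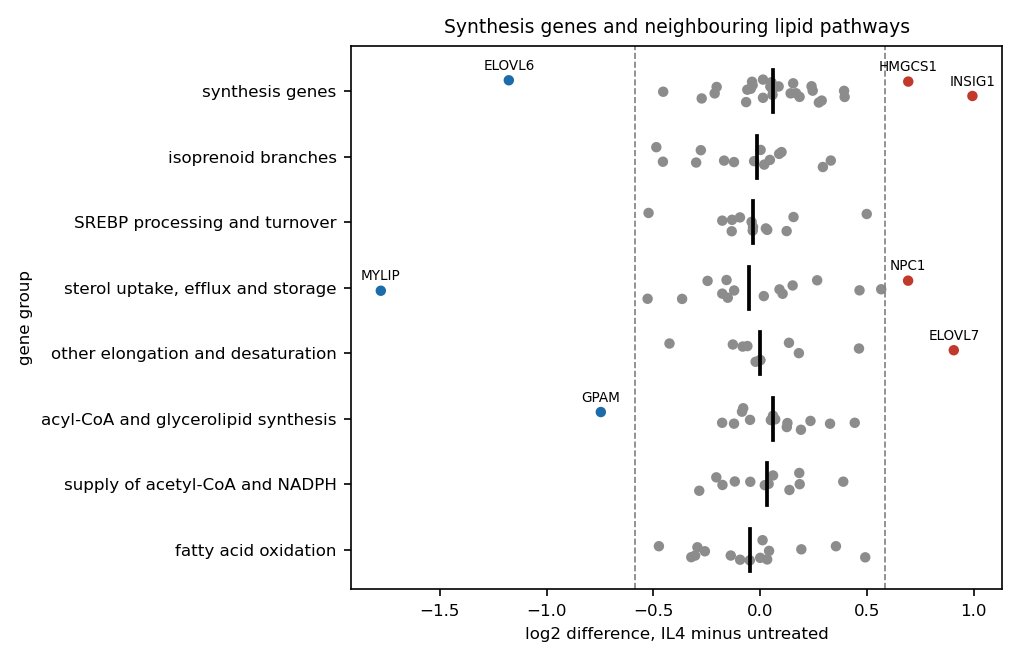
Log2 difference, IL4 minus untreated (x axis), of the 29 synthesis genes (top row) and of 7 neighbouring lipid pathways, with each gene as a point whose height within a row has no meaning. The median of a row is drawn as a black bar and 1.5-fold as dashed lines, beyond which genes are red (higher) or blue (lower); each pathway has at most 1 red and 1 blue point, and the synthesis genes have 2 red and 1 blue.

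Markers of epithelium and of other cell types were read in both conditions, without setting 1 gene's level against another's. EPCAM, MUC1, CDH1 and the keratin genes KRT7, KRT8, KRT18 and KRT19 had log2 values from 10.82 to 11.84 with IL4 and from 10.18 to 11.80 in untreated cells. The lung factor gene NKX2-1 read 6.91 with IL4 and 7.88 in untreated cells, and CDH1 was 1.68-fold higher with IL4. The second NKX2-1 probe set differed by -0.32, against -0.97 for the brightest. Measured markers of leukocytes, endothelium, hepatocytes and adipocytes were at 6.11 or below with IL4 and 5.96 or below in untreated cells. Of 5 fibroblast markers, COL1A1 read 11.23 with IL4 and 10.82 in untreated cells, and the others were at 4.85 or below with IL4 and 5.12 or below in untreated cells. COL3A1, 1 of those 4, was at 4.45 with IL4 and 3.67 in untreated cells. Further probe sets had log2 differences from 0.055 to 0.90 for COL1A1 and from 0 to 0.74 for COL3A1, so these sizes depend on the probe set. The part of the cells' make-up in the differences above was not tested.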

How the data were processed

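For each array the authors deposited a log2 value for every probe set, made with RMA by the submitters' processing notes; the version of RMA and any filter are not given in the sources used here. Probe sets were named through the array annotation. Of 54675 probe sets, 41097 carried 1 gene, and 41043 of these took their current symbol from RefSeq (GRCh38.p14); 1801 with several genes were left out. The members and lists were chosen with earlier results of these data known. Full values were planned for members past 1.5-fold, the 6 largest differences, the SREBP genes and the first enzyme of each role. They were also planned for up to 3 genes per direction and neighbouring list past 1.5-fold. Values with IL4 and in untreated cells are given for further members too, such as PMVK, MVD, FDPS, SC5D, STARD4 and FADS2. Differences, medians and counts were computed, without a test, in Python 3.11.15 with numpy 2.4.6, pandas 2.3.3, statsmodels 0.14.6 and matplotlib 3.10.9. The counting was tested on simulated data, with the same change planted in all probe sets of a gene. The simulated noise was smaller than the spread between probe sets on these arrays. That checks the counting itself and not how reliable a call at 1.5-fold is here. Alternatives were thresholds of 1.2-fold and 2-fold, floors at the median and 75th percentile level, the mean over probe sets, the second brightest probe set, leaving out probe sets whose design allows more than 1 transcript, loess (fraction 0.3), quantile normalization and centring. The number of arrays, 1 per condition, limits the precision. Scanner files and the study's other arrays were not analysed here.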

Additional observations from a re-analysis of the deposited data

How the results depend on the processing

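The log2 difference of ELOVL6 stayed between -1.18 and -1.11, that of INSIG1 between 0.99 and 1.09 and that of HMGCS1 between 0.51 and 0.76 over the alternatives that change values. No difference past 1.5-fold changed sign. Further values of single genes of the group numbered 155, but some could not move. Centring changed none, because the median over all genes was already 0. The 10 genes with 1 probe set keep their value under the mean over probe sets. Of the 155, 153 moved by less than 0.25, the standard deviation between probe sets of a gene. The exceptions were ACACA, at 0.057 with its second brightest probe set, and IDI1, at -0.38 without probe sets designed to allow more than 1 transcript. That IDI1 value came from a dim probe set below the median level, at 4.11 with IL4 and 4.49 in untreated cells. The brightest IDI1 probe set differed by -0.038. The median of the group ranged from 0.040, without probe sets designed to allow more than 1 transcript, to 0.12 after loess. That of the mevalonate steps was -0.036 with the 75th percentile floor. Of the neighbouring lists, fatty acid oxidation had 0.021 after loess, and supply of acetyl-CoA and NADPH -0.13 with the second brightest probe set. At 2-fold, 0 genes of the group were higher, because INSIG1 was 1.99-fold higher, and at 1.2-fold 6 were higher and 3 lower. With the second brightest probe set, available for 19 of the 29, 1 was higher. Without probe sets designed to allow more than 1 transcript, the median of the acetyl-CoA and fatty acid chain genes was -0.20, with ACACA alone left of the 4. Of the 96 neighbouring lipid genes, 0 were higher and 1 lower at 2-fold, where 219 and 176 of all 19775 genes were. At 1.2-fold, against 13.7% and 17.6% of all genes, 14 (14.6%) of the neighbouring lipid genes were higher and 15 (15.6%) lower. Among these genes, 1 was lower with the 75th percentile floor, 1 was higher with the mean over probe sets, 0 were higher and 1 lower with the second brightest probe set, and 1 was lower without probe sets designed to allow more than 1 transcript, where MYLIP had -0.065.

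No paired analysis was possible because each condition has 1 array and the labels give no replicate numbers, which also means that leaving out a replicate was not run. Of all probe sets, 8.28% had identical values in both arrays, and 68.0% shared their log2 difference, to 7 decimals, with another probe set, 90.7% of those below the median level and 19.0% of those at or above the 75th percentile. Among the 29 genes this held for 6, TM7SF2, DHCR7, SREBF1, SREBF2, STARD4 and ACSS2. Its cause was not tested.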
